A study of Mus musculus with 50 samples.

Results

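The immediate early transcription factors followed here are the 10 genes Egr1, Egr2, Fos, Fosb, Fosl1, Jun, Junb, Ier2, Klf4 and Atf3, chosen by name. The platform's table of probes and gene symbols gave 12 probes for 9 of them, and Fosl1, a partner of the Jun proteins, was named by no probe and was not analysed here. All 9 passed the filter for testing, beside 12644 genes tested of 19057 genes with a probe. A gene is called detected on an array where its probe's detection p was below 0.05. Egr1, Egr2, Jun, Junb and Klf4 were detected on all 50 arrays and Fos on 44. Fosb was detected on 17 arrays, Atf3 on 5 and Ier2 on 4, so the values of these 3 genes lay near the background of the arrays.

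The cells were derivatives of NIH 3T3, a mouse embryonic fibroblast line. In the inducible derivative, mifepristone, a synthetic steroid, switches on a gene for eIF4E, the protein that binds the 5′ cap of an mRNA so that its translation can begin. The other derivative was a control in which eIF4E could not be induced. The sources used here do not say how many clones each derivative came from. The inducible line was measured without mifepristone, with mifepristone, with mifepristone plus 4Ei-1, an inhibitor of eIF4E, at doses of 10, 50, 100 or 200 µM, and with mifepristone and 200 µM of 4Ei-4, which the submitters call a less potent analog. The non-inducible line was measured with and without mifepristone and with neither drug. Treatment lasted 4 h. Every group had 3 cultures except the non-inducible line without mifepristone, which had 1. All 25 cultures received cycloheximide, which stalls ribosomes on mRNAs, before harvest. RNA from polysomes (the gradient fraction titled heavy) and total RNA of each culture were hybridised to separate arrays. The labels do not say whether replicates were grown separately, so the p-values measure the spread among these cultures, which may be technical. The 4 processing batches named in the labels do not split the groups evenly: 4Ei-4 and the non-inducible line were only in batch 4.

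Of 11 fibroblast markers, among them Col1a1, Vim and Thy1, 10 were detected on every array and Pdgfrb on 48 of the 50. Of 15 markers of other cell types with a probe, none was detected on every array, 4 were never detected (Ptprc, Adgre1, Pecam1 and Cdh5), and only Des was detected on at least 25 arrays. The induced gene could not be checked well, because its probe was near background. The probe of Eif4e was detected on 17 arrays and differed by -0.50 ± 0.26 (SE) on polysomes and 0.39 ± 0.20 in total RNA with mifepristone (limma, adjusted p = 0.644 and 0.655, n = 3 against 3).

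Immediate early genes are transcribed within minutes of a growth signal, without new protein synthesis. In fibroblasts, signals from receptor tyrosine kinases pass through the ERK kinases to ternary complex factors, which act with serum response factor at a DNA element called the CArG box, and to CREB proteins, which bind the cyclic AMP response element (CRE). The products, such as the zinc finger protein Egr1 and the AP-1 dimers of Fos and Jun proteins, then control later genes. Their mRNAs are short-lived, and the translation inhibitor cycloheximide is itself known to raise them.

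Promoter windows of 300 bases, from 250 bases before to 50 bases after the start of transcription, were available from RefSeq (mouse build GRCm38.p6) for 7 of the genes and used in 11 windows, since Egr2 has several starts. The windows of Egr1, Ier2 and Fosl1 were not analysed here, so matches in them are unknown. Bases outside the windows were not searched. The windows used were 5 of Egr2 and 1 of each other gene. They were searched on both strands for the CArG box, the CRE (TGACGTCA), its core TGACG, AP-1 sites (TGACTCA or TGAGTCA), EGR sites (GCGTGGGCG or GCGGGGGCG) and TATAA. A full CRE also holds the core, and no window of these genes held a full CRE or an AP-1 site. The 2 matches to the CArG box, shown because Egr2 was the gene that differed most between cultures, both lay in windows of Egr2. They are printed with 8 bases on each side and the box in capitals, followed by the CRE core of Fos nearest its start, for comparison.
Egr2, chr10:67537486-67537511, plus strand: gatcttctCCTTTTTTGGaaagtctc
Egr2, chr10:67537789-67537814, plus strand: tcctcagtCCATATATGGgcagcgac
Fos, chr12:85473816-85473836, plus strand: ccgcccagTGACGtaggaagt
Of 32544 promoter windows of all genes, 1.64% held a CArG box and 20.9% a CRE core. The core was found in windows of Egr2, Fos, Fosb, Junb, Klf4 and Atf3 and not in that of Jun, and EGR sites, held by 3.5% of all windows, were found in those of Fosb and Klf4. These matches describe the letters only.

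Without mifepristone, the inducible line held the lowest levels of Egr1 and Egr2 of all 9 groups, and with mifepristone both were higher in every pair of cultures. This comparison asks how the RNA of these genes differs with mifepristone, which switches on eIF4E in this line. The induction itself could not be checked well on these arrays. All levels are log2 array intensities, and all differences are in log2 units. Egr2, a zinc finger transcription factor of the Egr family, read 8.91, 8.78 and 10.07 on polysomes in the 3 cultures with mifepristone and 6.96, 7.09 and 6.81 in those without. In total RNA the values were 9.06, 8.40 and 9.84 against 7.23, 6.79 and 6.33. The groups did not overlap in either RNA, and the culture of replicate 3 with mifepristone was the highest. The fitted rise of Egr2 was 2.32 ± 0.34 (SE) on polysomes, a 5-fold difference, and 2.27 ± 0.41 in total RNA (limma, adjusted p = 0.00144 and 0.00761 over all genes tested). It was the only one of the 9 genes called in either RNA at an adjusted p below 0.05, against 0.403% of all genes tested on polysomes and 0.625% in total RNA. The call rested on 1 culture: without the mifepristone culture of replicate 3 the polysome difference of Egr2 was 1.47 and that in total RNA 1.19 (limma, adjusted p = 0.163 and 0.32). Within batch 1 (1 culture against 1) the difference of Egr2 on polysomes was 1.94, and within batch 3 (1 against 2) it was 3.12. Each array measures a whole culture, so fewer cells with a transcript and less of it per cell cannot be told apart.

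Egr1, the zinc finger factor after which the family is named, moved with Egr2 but did not pass the test. On polysomes Egr1 read 12.38, 11.91 and 13.23 with mifepristone and 11.64, 11.40 and 10.99 without. In total RNA it read 12.34, 11.97 and 12.88 against 11.68, 11.78 and 10.97. Every culture with mifepristone was above every culture without it. The differences were 1.29 ± 0.31 on polysomes and 0.98 ± 0.27 in total RNA (limma, adjusted p = 0.0808 and 0.153), and 0.74 and 2.04 on polysomes within batches 1 and 3. Without the mifepristone culture of replicate 2 both passed, at 1.48 (adjusted p = 0.0335) and 1.14 (adjusted p = 0.049), and without the untreated culture of replicate 1 the polysome difference did, at 2.04 (adjusted p = 0.0201). Without the mifepristone culture of replicate 3 the differences of Egr1 were 0.48 and 0.43 (limma, adjusted p = 0.721 and 0.709).

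Klf4, a zinc finger factor known for its use in reprogramming, had the same order. Its best probe read 8.48, 9.02 and 8.46 on polysomes with mifepristone and 7.89, 6.95 and 7.28 without. The difference of Klf4 was 1.01 ± 0.23 on polysomes and 0.77 ± 0.23 in total RNA (limma, adjusted p = 0.056 and 0.204), again with no overlap between the groups. With another of its probes, ILMN_1221264, the polysome difference was 1.09 ± 0.21 and passed (adjusted p = 0.0197). With the remaining probe, ILMN_2999439, it was 1.24 ± 0.41 and did not pass (limma, adjusted p = 0.335). In total RNA these probes gave 0.18 ± 0.27 and 0.44 ± 0.37 (limma, adjusted p = 0.957 and 0.874). The groups overlapped for ILMN_1221264 in total RNA and for ILMN_2999439 in both RNAs. For the best probe, without the mifepristone culture of replicate 3, the polysome difference of Klf4 was 0.66 (limma, adjusted p = 0.455).

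The AP-1 genes and the remaining genes showed no difference that passed. Junb, a Jun protein that forms AP-1 dimers, read 11.03, 10.87 and 10.49 on polysomes with mifepristone and 10.69, 8.30 and 8.99 without. The cultures without mifepristone spanned more than 2 units and overlapped those with it, and the difference of Junb was 0.88 ± 0.44 (adjusted p = 0.624). Fos, the founding partner of Jun in AP-1, differed by 0.48 ± 0.56 (adjusted p = 0.891), with a 95% interval from -0.69 to 1.65. Jun, which pairs with Fos in that dimer, differed by -0.21 ± 0.24 (adjusted p = 0.886). Fosb (a relative of Fos), Ier2 (a nuclear protein of the immediate early response) and Atf3 (a stress-induced bZIP factor), all near background, differed by -0.27 to 0.16 on polysomes. The groups of Atf3 did not overlap there either, but in the other direction, at 4.39 to 4.49 with mifepristone and 4.58 to 4.96 without. So 4 of the 9 genes did not overlap on polysomes, Atf3 among them. The share of all genes without overlap was not counted in any comparison, so nothing is concluded from this count. The median difference over the 9 genes was 0.48 on polysomes and 0.48 in total RNA, beside -0.01 and -0.01 over all genes tested.

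**Figure D1:**
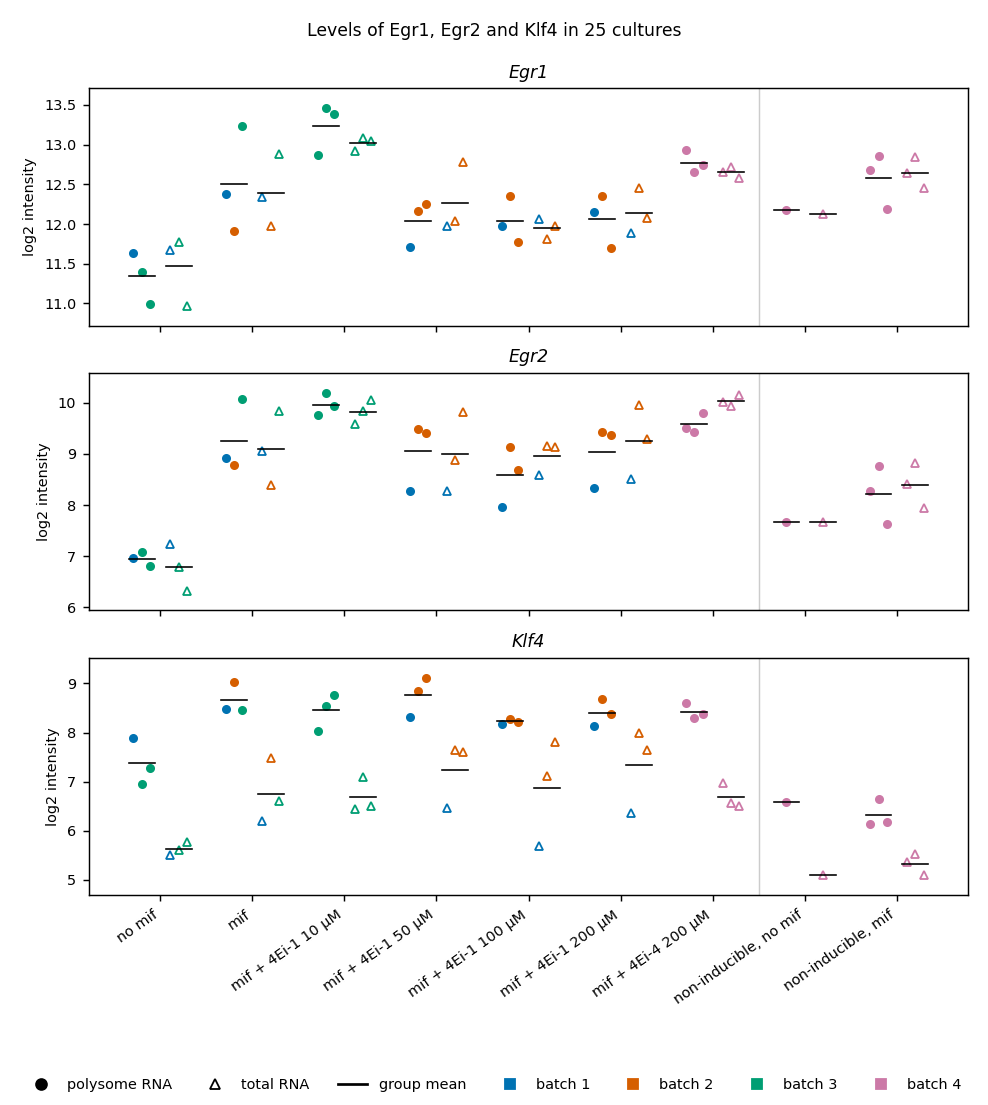
Log2 intensity of Egr1, Egr2 and Klf4 (best probe) in every culture, by group. Filled circles are polysome RNA, open triangles total RNA, colours the processing batch and bars the group means, and mif is mifepristone. The 3 cultures of the inducible line without mifepristone lie lowest for Egr2, between 6.81 and 7.09 on polysomes.

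The cultures with mifepristone and 10 µM of 4Ei-1, all from batch 3, had the highest means of Egr1 and Egr2 on polysomes among the groups, which lie in different batches. The single no-drug culture with mifepristone of batch 3 read 13.23 for Egr1 and 10.07 for Egr2, so that within that batch 10 µM differed from no drug by 0.01 and -0.11. Egr1 read 12.87, 13.46 and 13.39 there, and its total RNA values were 12.92, 13.08 and 13.05. The polysome values of Egr2 were 9.76, 10.19 and 9.93, while its total RNA read 9.58, 9.83 and 10.06. All of these values lay above all cultures without mifepristone. Set against those same cultures, Egr2 was higher by 2.75 ± 0.33 on polysomes and 2.92 ± 0.40 in total RNA (limma, adjusted p = 1.23e-04 and 3.40e-04), and both calls held without each of the 6 cultures in turn. Egr1 rose by 1.79 ± 0.31 and 1.47 ± 0.26 (adjusted p = 0.0042 and 0.00446), and Klf4 by 1.22 ± 0.22 and 0.96 ± 0.22 (adjusted p = 0.00744 and 0.036). So 3 of the 9 genes passed in each RNA, against 0.68% of all genes called on polysomes and 1.21% in total RNA. None was called lower. The fitted difference was above 0 for 6 of the 9 on polysomes and 5 in total RNA. The total RNA call of Klf4 was lost in most other settings: it was at 0.27 in the authors' log2 values, 0.44 without background correction, 0.66 with an offset of 50, 0.94 with batch as a random block, 1.07 without a batch term and 1.01 within batch 3 (limma, adjusted p = 0.245, 0.084, 0.0519, 0.196, 0.736 and 0.0644). ILMN_2999439 and ILMN_1221264, its other probes, gave 1.13 and 0.51 there (adjusted p = 0.229 and 0.866). The polysome call of Klf4 was lost without a batch term (1.08, adjusted p = 0.102) and with ILMN_2999439 (1.24, adjusted p = 0.346). The comparison shares its controls with the one above and is not a second test of it, and it joins mifepristone and 4Ei-1. Without the culture of replicate 3 without mifepristone, Egr1 no longer passed (polysome difference 1.47, total RNA 1.05, adjusted p = 0.112 and 0.1), nor did Klf4 (1.26, adjusted p = 0.0638, and 0.98, adjusted p = 0.18). Without the untreated culture of replicate 2, Egr1 was at 1.76 on polysomes (adjusted p = 0.0549) and Klf4 at 1.03 and 0.87 (adjusted p = 0.173 and 0.31). Klf4 also missed the threshold on polysomes without the 10 µM culture of replicate 3 (1.07, adjusted p = 0.0503) and in total RNA without those of replicates 1 and 2 (1.07 and 0.75, adjusted p = 0.0535 and 0.185). The log2 of the summed intensities of 11 fibroblast markers, in which the brightest weigh most, was 13.25 to 13.59 on polysomes at 10 µM. It was 13.42 to 14.90 without mifepristone, and its part in these differences was not tested. Junb differed by 1.30 ± 0.43 on polysomes (adjusted p = 0.386).

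Mifepristone gave no called difference in any of the 9 genes in the non-inducible line, where 1 culture stood for the untreated group and was assumed to vary like the others. Egr1 there read 12.68, 12.86 and 12.19 on polysomes with mifepristone and 12.18 without. Egr2 read 8.27, 8.77 and 7.63 with and 7.66 without, so 1 treated culture lay below the untreated one. No gene of all those tested was called there (0% in polysome RNA, in total RNA and in polysome minus total RNA), and none of the 9 had an unadjusted p below 0.05 (limma), while 71 of all genes on polysomes did. The rise of Egr2 with mifepristone was larger in the inducible than in the non-inducible line by 1.76 ± 0.55 on polysomes, with a 95% interval from 0.60 to 2.91, and that of Klf4 by 1.28 ± 0.38, from 0.50 to 2.07. Neither of these differences passed over all genes (limma, adjusted p = 1 and 0.91). There 0.0395% of genes were called on polysomes, 0.0316% in total RNA and 0% in the difference between them. With ILMN_2999439 and ILMN_1221264, the other probes of Klf4, it was 1.07 and 1.36 on polysomes for that gene. In total RNA these probes gave -0.06 and -0.07. The rise of Egr1 differed by 0.89 ± 0.51 (interval from -0.18 to 1.96).

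The inhibitor 4Ei-1 was added on top of mifepristone to ask whether it turns the changes back. None of the 9 genes was called at any dose against no drug, in polysome RNA, total RNA or the difference of both. Of all genes, 0% were called on polysomes with the 10 µM dose and likewise with 50 µM, 0.0949% with 100 µM and 0.0158% with 200 µM. The shares in total RNA, in the same order of doses, were 0%, 0.158%, 0.482% and 0.19%. With the 10 µM dose all 9 genes were fitted above no drug on polysomes, by 0.02 to 0.51, with a median of 0.21. Within batch 3, which holds every 10 µM culture and 1 culture with no drug, Atf3 was at 0.20, Egr1 at 0.01 and the other 7 genes below 0, from -0.23 for Junb to -0.01 for Klf4. At an unadjusted p below 0.05 there were 2 of the 9 genes on polysomes at 100 µM, 3 at 200 µM and none at 10 and 50 µM (limma). Of all genes, 10.9% lay below that unadjusted threshold at 100 µM and 12.8% at 200 µM.

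Jun and Klf4 had the smallest p-values on polysomes at 100 µM. On polysomes Jun read 8.60, 9.25 and 9.37 at 100 µM and 9.44, 10.01 and 8.94 without drug, which overlap. The fitted difference of Jun, which allows for batch, was -0.85 ± 0.24 at 100 µM (limma, adjusted p = 0.163) and -0.57 ± 0.24 at 200 µM (adjusted p = 0.319). Within batches 1 and 2 the difference at 100 µM was -0.84 and -0.70. Klf4 read 8.18, 8.28 and 8.22 at 100 µM against 8.48, 9.02 and 8.46 without drug, with no overlap, and differed by -0.69 ± 0.23 (adjusted p = 0.255). In total RNA Klf4 differed by -0.25 ± 0.23 at 100 µM (adjusted p = 0.664). Junb had its smallest p in total RNA at 100 µM, at 9.08, 9.44 and 9.75 against 10.19, 10.19 and 9.35, a difference of -1.01 ± 0.30 (adjusted p = 0.143).

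On polysomes the means of Egr1 and Egr2 were nearer to the mean with mifepristone alone than to that without it at all doses. On polysomes Egr1 averaged 12.04 ± 0.29 (SD, n = 3) at 50 µM, 12.04 ± 0.28 at 100 µM and 12.07 ± 0.34 at 200 µM, beside 12.51 ± 0.67 without drug and 11.35 ± 0.33 without mifepristone. Egr2 averaged 9.06 ± 0.67, 8.59 ± 0.59 and 9.04 ± 0.61 at those doses, beside 9.25 ± 0.71 and 6.95 ± 0.14. The differences from no drug at 200 µM were -0.31 for Egr1 (95% interval from -0.96 to 0.34) and -0.18 for Egr2 (from -0.89 to 0.52). Batches 1 and 2 hold all cultures at 50, 100 and 200 µM, and in each of these 3 groups Egr2 was lowest in its batch 1 culture. Only batch 1 also holds both kinds of control, with 1 culture of each group. On polysomes there, Egr1 read 12.38 with mifepristone alone, 11.64 without it, and 11.71, 11.98 and 12.15 at these doses. The values at 50 and 100 µM were thus nearer to that without mifepristone. Egr2 read 8.91 and 6.96, and 8.28, 7.97 and 8.34 at the doses, all nearer to that with mifepristone. The slope over the 5 doses, per 100 µM, was -0.36 ± 0.12 for Klf4 and -0.35 ± 0.12 for Jun on polysomes (limma, adjusted p = 0.235 and 0.276) and between -0.29 and 0.17 for the others. The slope was called for none of the 9 genes and for 0% of all genes on polysomes and 0.0395% in total RNA, with 3 of the 9 at an unadjusted p below 0.05 on polysomes (11.8% of all genes) and none in total RNA (10.4%). Between 200 and 50 µM none of the 9 was called, against 0.245% of all genes on polysomes and 0.0395% in total RNA, with 2 and 0 of the 9 at an unadjusted p below 0.05, beside 12.4% and 8.24% of all genes. With the replicate number as a block the calls over all genes in total RNA went from 5 to 0, and none of the 9 was called.

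**Figure D2:**
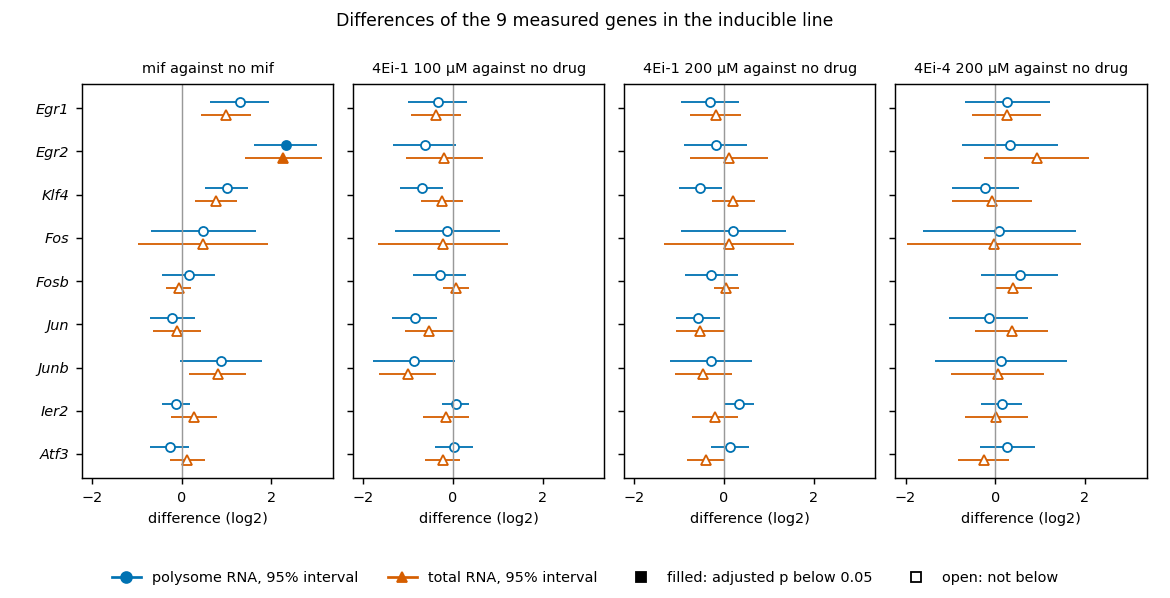
Fitted log2 differences with 95% intervals of the 9 measured genes in the inducible line, for mifepristone (mif) against none and for 3 drug treatments against mifepristone alone. Circles are polysome RNA and triangles total RNA, and filled symbols have an adjusted p below 0.05. Only Egr2 with mifepristone, at 2.32 and 2.27, is filled.

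The 2 drugs were compared at their shared dose of 200 µM and time of 4 h, 1 pair of compounds, and no difference passed. The labels and sources used here do not give how the structures differ. Egr1 read 12.15, 12.36 and 11.70 on polysomes with 4Ei-1 and 12.93, 12.65 and 12.74 with 4Ei-4. Egr2 read 8.34, 9.42 and 9.37 with 4Ei-1 and 9.51, 9.43 and 9.79 with 4Ei-4. All values with 4Ei-1 lay below all with 4Ei-4, but every 4Ei-4 culture was in batch 4 and no 4Ei-1 culture was. With batch as a random block, 4Ei-1 minus 4Ei-4 was -0.63 ± 0.46 for Egr1 (limma, adjusted p = 0.888, 95% interval from -1.59 to 0.33) and -0.54 ± 0.52 for Egr2 (adjusted p = 0.94, interval from -1.62 to 0.55). The interval was from -1.73 to 0.03 for Fosb, from -1.15 to 0.64 for Jun, from -0.96 to 0.56 for Klf4 and from -1.69 to 1.30 for Junb. Of all genes 0% were called between the drugs on polysomes, 0.00791% in total RNA and 0% in the difference of both. Among the 9 genes only Jun had an unadjusted p below 0.05 in any of these, in polysome minus total RNA (0.58 ± 0.28, adjusted p = 0.859), as had 5.79% of all genes. Compound and batch cannot be told apart within these groups.

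Against no drug, 4Ei-4 gave 0.27 ± 0.45 for Egr1 and 0.32 ± 0.51 for Egr2 on polysomes, and 0.93 ± 0.57 for Egr2 in total RNA (limma, adjusted p = 1 for each). None of the 9 genes was called, nor had any an unadjusted p below 0.05, and of all genes 0% were called on polysomes, 0.00791% in total RNA and 0.00791% in polysome minus total RNA.

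Klf4 was lower in the non-inducible line. It read 6.14, 6.65 and 6.17 on polysomes in the non-inducible line with mifepristone and 8.48, 9.02 and 8.46 in the inducible line with mifepristone. The lines did not overlap, and without mifepristone the single non-inducible culture, at 6.59, also lay below the 3 inducible ones. In total RNA Klf4 read 5.36, 5.52 and 5.10 against 6.19, 7.48 and 6.60, and without the last of these cultures its difference passed (1.46, limma, adjusted p = 0.0498). The difference of Klf4 was 2.33 ± 0.36 on polysomes and 1.43 ± 0.43 in total RNA (limma, batch as a random block, adjusted p = 5.60e-04 and 0.0506). Klf4 on polysomes was the only call among the 9 genes in either RNA. Of all genes 2.57% were called on polysomes and 6.24% in total RNA, where 1 of the 9 and 19.7% of all genes had an unadjusted p below 0.05. Egr2 differed by 1.03 ± 0.51 and Junb by 0.81 ± 0.71 on polysomes (adjusted p = 0.361 and 0.727), and Egr1 by -0.07 ± 0.45.

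Within batch 4 the lines can be set side by side only with 4Ei-4 in the inducible one. Klf4 read 8.61, 8.29 and 8.37 there on polysomes, and was higher by 2.11 ± 0.21 on polysomes and 1.35 ± 0.21 in total RNA (limma, adjusted p = 4.69e-07 and 7.32e-05). Egr2 was higher by 1.35 ± 0.31 and 1.64 ± 0.38 (adjusted p = 0.00212 and 0.00301), and Jun in total RNA by 1.11 ± 0.24 (adjusted p = 0.00158). The counts of 2 of 9 genes on polysomes and 3 of 9 in total RNA stand beside 31.5% and 24.6% of all genes called, so they are close to the background. The log2 of the summed intensities of the fibroblast markers was 13.52 to 13.67 on polysomes in the non-inducible line with mifepristone. It was 14.55 to 15.08 with 4Ei-4 and 13.64 to 15.01 in the inducible line with mifepristone alone. In total RNA it was 14.73 to 14.84, 14.67 to 15.06 and 14.70 to 14.88. That of the markers of other cell types was 8.51 to 8.55 and 8.60 to 8.66 on polysomes, with Ptprc, Adgre1, Pecam1 and Cdh5 not detected. The part of either in these differences was not tested.

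The probes of Klf4 disagreed on this. The platform has 3, all credited to NM_010637 (gene ID 16600), and ILMN_1241903 stands for the gene above. ILMN_1221264 gave 2.20 ± 0.34 between the lines on polysomes (limma, adjusted p = 5.35e-04) and 1.93 ± 0.20 within batch 4. ILMN_2999439, detected on 46 arrays, gave 0.14 ± 0.74 (adjusted p = 0.993) and -0.70 ± 0.38 (adjusted p = 0.187). It read highest at 10 µM of 4Ei-1, with a mean of 8.29 on polysomes, where the other probes averaged 8.45 and 7.26, beside 8.65 and 7.63 without drug.

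**Figure D3:**
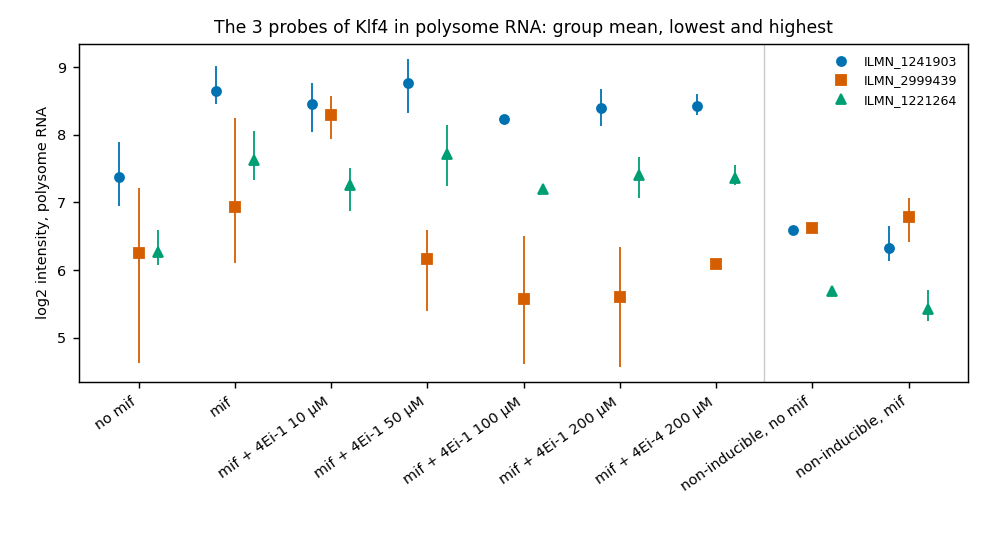
Log2 intensity of the 3 probes of Klf4 in polysome RNA, as group means with a line from the lowest to the highest culture. ILMN_1241903 and ILMN_1221264 are lowest in the non-inducible line with mifepristone, at means of 6.32 and 5.43, and ILMN_2999439, at 6.79 there, is not.

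Polysome minus total RNA of the same culture shows how far a transcript is found on heavy polysomes relative to all other transcripts. Klf4 lay above 0 in all 25 cultures, from 0.41 to 2.50, and Junb in all 25, from 0.15 to 1.29. Jun lay above 0 in 24 of 25, from -0.29 to 1.13. Fos was the reverse and lay above 0 in only 2 cultures, from -2.41 to 0.11. Averaged over the groups, polysome minus total RNA was 1.51 ± 0.11 (SE) for Klf4, 0.93 ± 0.06 for Junb, 0.63 ± 0.06 for Jun and -0.85 ± 0.12 for Fos (limma, adjusted p = 1.82e-11, 1.40e-11, 1.16e-08 and 1.08e-06). Ier2, near background, was at -0.17 ± 0.07 (limma, adjusted p = 0.0497), and at -0.07 with an offset of 50, -0.06 without background correction and -0.04 in the authors' log2 values, where it did not pass. These 5 of 9 genes stand beside 53.7% of all genes, so the count is close to the background. The sizes moved with the processing: Klf4 was at 0.69 in the authors' log2 values and 0.89 without background correction, Fos at -0.32 and -0.45, and with the 2 kinds of array normalized separately Jun was at 1.01. Direction and call of Klf4, Junb, Jun and Fos held in each of these 3 settings. In the values as first given, Klf4 lay above 99.3% of the genes tested, Junb above 94% and Jun above 86.1%, while Fos lay above 8.88%, with a median over all genes of 0.05. Egr1 was at 0.01 (95% interval from -0.12 to 0.14) and Egr2 at -0.07 (from -0.22 to 0.07), but with the 2 kinds of array normalized separately Egr2 was at 0.28 (adjusted p = 0.00145).

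The probe of Klf4 matters here too. ILMN_1221264 gave 1.15 and ILMN_2999439 gave -0.31 (limma, adjusted p = 6.53e-10 and 0.0532). By batch, the mean of Klf4 was 2.16, 1.10, 1.69 and 1.41 in batches 1 to 4, that of Junb 0.97, 1.02, 0.92 and 0.81, that of Jun 0.46, 0.89, 0.60 and 0.51, and that of Fos -0.71, -1.08, -0.30 and -1.04. The direction was thus the same in every batch for all 4 genes.

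**Figure D4:**
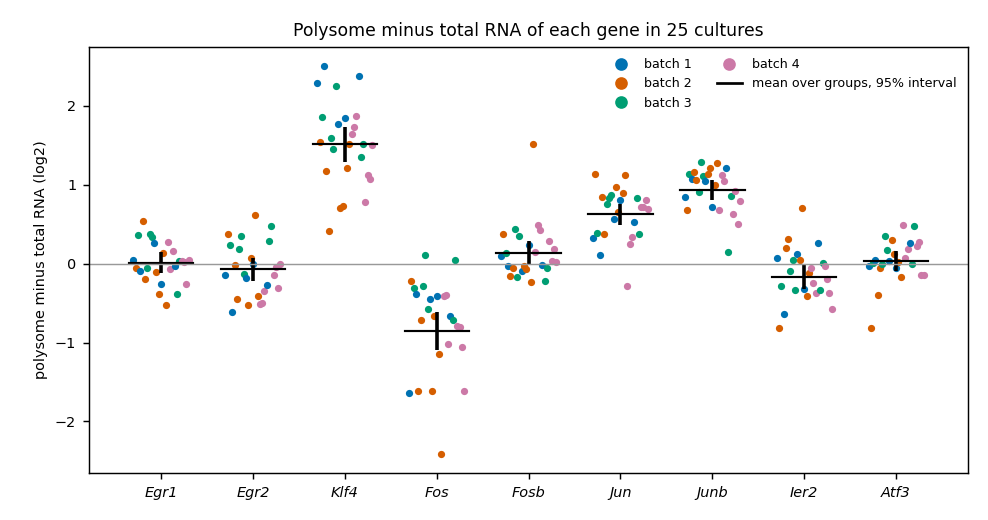
Log2 polysome RNA minus log2 total RNA of each gene in each of 25 cultures, coloured by processing batch, with the mean over the 9 groups and its 95% interval in black. Klf4 and Junb lie above 0 in every culture and Fos in only 2.

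No treatment changed this balance in any of the 9 genes by a called amount. With mifepristone, Egr2 differed in polysome minus total RNA by 0.05 ± 0.27 (95% interval from -0.51 to 0.62) and Egr1 by 0.30 ± 0.27 (limma, adjusted p = 0.999 for both), so any gap between the rises of Egr2 in the 2 RNAs lay within that interval. For Klf4 the difference between 200 µM of 4Ei-1 and no drug was -0.74 ± 0.29 (limma, adjusted p = 0.268), with 1.77, 0.70 and 0.73 at 200 µM against 2.29, 1.54 and 1.86 without drug, which overlap. For Atf3 it was 0.54 ± 0.24 (adjusted p = 0.334), near background. Of all genes, 0% were called with mifepristone, 0% with mifepristone and 10 µM against none, 0% at 10 µM of 4Ei-1 against no drug, 0.0158% at 50 µM, 0.316% at 100 µM, 0.403% at 200 µM, 0.0237% for the slope and 0.237% between 200 and 50 µM. Between the lines with mifepristone it was 0%, and within batch 4 it was 11.7%. There, polysome minus total RNA was 0.76 ± 0.27 higher for Klf4 and -0.65 ± 0.22 for Jun in the inducible line with 4Ei-4, which missed the threshold (adjusted p = 0.07 and 0.0564). At an unadjusted p below 0.05 there were none of the 9 genes with mifepristone and 2 at 200 µM of 4Ei-1 (limma), beside 4.41% and 13.4% of all genes.

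**Figure D5:**
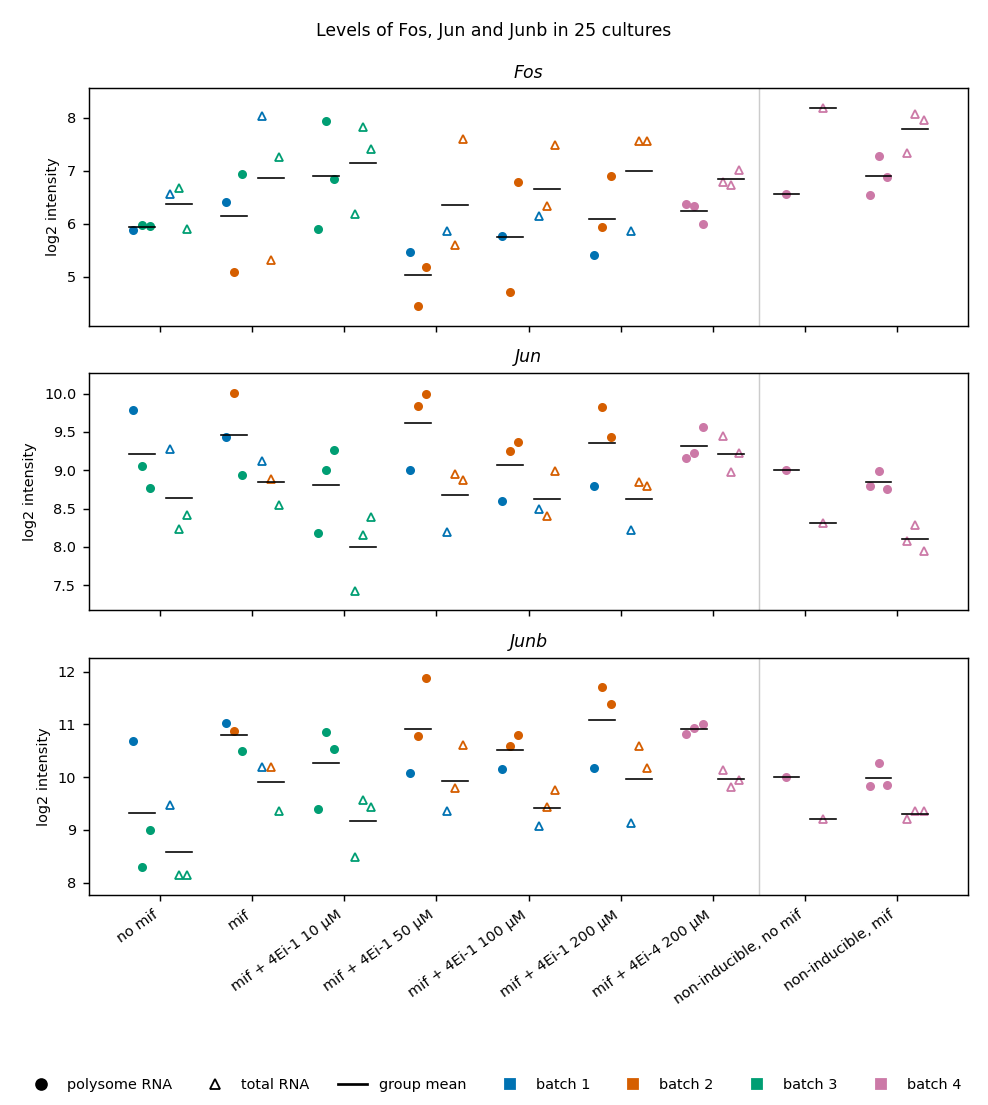
Log2 intensity of Fos, Jun and Junb in every culture, by group, drawn as for Egr1. Circles (polysome RNA) lie above triangles (total RNA) for Fos in only 2 of 25 cultures and for Junb in all 25, and the 3 cultures of Junb in the inducible line without mifepristone span 8.30 to 10.69 on polysomes.

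Egr1, Egr2, Junb and Klf4 varied together over the cultures. After each batch's mean was taken off, Pearson's r of polysome RNA over 25 cultures was 0.89 between Egr1 and Egr2 and 0.76 between Egr2 and Junb. It was 0.78 between Egr2 and Klf4, 0.72 between Egr1 and Junb, and 0.75 between Junb and Klf4. The lowest r among these genes was 0.59, between Egr1 and Klf4. In total RNA the same values, in that order, were 0.85, 0.74, 0.80, 0.71, 0.69 and 0.53. The cultures share treatments, so these are descriptions of this set of cultures. Polysome and total RNA of the same culture moved together for Egr2 (r = 0.96), Junb (0.93), Egr1 (0.89) and Klf4 (0.86), and not for Fosb (0.06), Atf3 (0.22) or Ier2 (-0.28), the genes near background.

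Among 8094 other genes detected on at least 25 arrays, the patterns most like that of Egr2 were those of Hes1 (r = 0.91), Hey1 (0.91) and Casp9 (0.89). Hes1 and Hey1 are repressors known as Notch targets, and Casp9 is an initiator caspase. In total RNA each of these was at 0.91. For Egr1 they were Phlda1 (0.82), Dusp6 (0.79), a phosphatase that switches off ERK, and Zfp532 (0.77), at 0.60, 0.67 and 0.57 in total RNA. Without taking off the batch means, Zfp532 was at 0.19 on polysomes. For Junb they were Rhebl1 (0.81), Dusp6 (0.78) and Cdc42ep4 (0.75), at 0.32, 0.71 and 0.70 in total RNA. For Atf3, which was near background, they were Polk (0.71), Inpp5a (0.70) and Cdkn1a (0.65), at 0.26, 0.50 and 0.32 in total RNA.

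Other genes of the response were counted in lists named by their roles. The lists were chosen with earlier results of these data known, so the calls in them are descriptions and no test of the lists. Beside them, 0.403% of all genes tested were called with mifepristone on polysomes and 0.625% in total RNA. Of 28 other immediate early transcription factors tested, Hes1 and Ier5l were called higher with mifepristone on polysomes and none lower, and the same counts of 2 and 0 held in total RNA. Hes1 rose by 3.08 ± 0.35 and Ier5l, a relative of Ier5, by 0.99 ± 0.21 (limma, adjusted p = 5.90e-05 and 0.045), while Cebpb was at 1.05 ± 0.28 (adjusted p = 0.133). The median of the 28 was 0.17 on polysomes. Of 37 other immediate early genes, none was called, and the kinase gene Plk3 was at 1.18 ± 0.28 (adjusted p = 0.0751). Of 17 feedback inhibitors of ERK and of Egr proteins, none was called on polysomes or in total RNA. Spry4, an inhibitor of receptor signalling, was at 1.17 ± 0.27 (adjusted p = 0.0638) and Dusp6 at 0.93 ± 0.31 on polysomes and 1.02 ± 0.24 in total RNA (adjusted p = 0.335 and 0.0667). Their median was 0.33 on polysomes and 0.05 in total RNA.

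Of 23 kinases and receptors upstream, none was called with mifepristone (median 0.10 on polysomes). Of 13 DNA-binding activators of immediate early promoters and their coactivators, only Crtc3, a CREB coactivator, was called, at 2.04 ± 0.31 on polysomes and 1.97 ± 0.32 in total RNA (limma, adjusted p = 0.00211 and 0.00293), and the median was 0.00. Of 16 bZIP partners (median 0.02), 18 genes known as AP-1 or Egr targets (median 0.15) and 19 genes of the integrated stress response, to which Atf3 belongs (median -0.05), none was called on polysomes. Pdgfa, a growth factor gene that Egr1 is known to bind, was at 0.76 ± 0.23 (adjusted p = 0.225).

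For mifepristone with 10 µM of 4Ei-1 against none, which shares those controls, more genes of these lists were called. The genes not named above are given after their values were seen. Among all genes tested 0.68% were called on polysomes and 1.21% in total RNA. Of the other immediate early transcription factors 3 were called higher in each RNA, Hes1 and Ier5l in both, Id3 on polysomes and Bcl6 in total RNA. Plk3 was called on polysomes at 1.62 ± 0.28 and Spry4 at 1.23 ± 0.27 (limma, adjusted p = 0.0042 and 0.032). In total RNA Dusp6 was called at 1.22 ± 0.24 and Slc2a1, a glucose transporter gene of the immediate early list, at -0.95 ± 0.22 (adjusted p = 0.00954 and 0.0356). Crtc3 was called in both RNAs.

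At 200 µM of 4Ei-1 no gene of these 8 lists was called on polysomes against no drug, beside 0.0158% of all genes. The medians were -0.19 for the other immediate early transcription factors, -0.13 for other immediate early genes, -0.37 for the feedback inhibitors, -0.23 for the upstream kinases, -0.18 for the activators, -0.33 for the bZIP partners, -0.08 for the AP-1 and Egr targets and 0.21 for the stress response genes, beside -0.01 over all genes. The members with the smallest p included Asns, an amino acid synthetase of the stress response, at 0.72 ± 0.19, the feedback inhibitor Spred1 at -0.92 ± 0.29 and Klf9 at -0.69 ± 0.22 (limma, adjusted p = 0.128, 0.194 and 0.208).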

How the data were processed

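Polysome RNA and total RNA of 25 cultures were measured on 50 bead arrays. The deposited tables give, per the file headers, an intensity and a detection p-value for each of 45281 probes. The authors also deposited log2 values of the same arrays, which served as an alternative; no source used here describes how they were normalized. Intensities were background-corrected with limma 3.58.1 (R 4.3.3) by means of their detection p-values (offset 16), then quantile-normalized over all arrays. Each gene was represented by its brightest probe on average, and the test covered 12644 genes detected on 3 or more arrays. The mean intensity was 183 to 436 per array, and 23.9% to 39.9% of probes were detected. The number of arrays limits the precision. Polysome RNA, total RNA and their difference were fitted over all groups with processing batch as a fixed term. The comparisons of 4Ei-4 with no drug and with 4Ei-1, and of the 2 lines with mifepristone, had batch as a random block (consensus correlations 0.448, 0.407 and 0.172, statmod 1.5.0). Polysome against total RNA had no batch term. Benjamini-Hochberg adjustment ran over all genes tested, and a gene is called where the adjusted p is below 0.05. The fits were tested on simulated data. The genes and lists were chosen with earlier results of these data known. All 10 genes were to be reported in every comparison, with up to 3 genes of each further list by smallest p and the 3 genes of most similar pattern. Same-numbered cultures deviated together, by the correlation of their deviations from the group means, in 3 of 28 pairs of groups in each RNA; the labels name no shared source beyond the batch. The alternatives were other background corrections, offsets, normalization, batch terms, filters and probes, the replicate number as a block, single batches, and leaving out each culture.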

Additional observations from a re-analysis of the deposited data

How the results depend on the processing

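Of 6259 values of the 387 results on single genes under alternative settings, 5724 kept their direction and side of the threshold, 44 calls were lost, 36 were gained, 451 changed sign without having been called, and 4 reversed. The reversed values were Egr2 in polysome minus total RNA with the fractions normalized separately (0.28), and ILMN_2999439 of Klf4, at -0.70 on polysomes and -0.06 in total RNA for 4Ei-4 against the non-inducible line and at -0.31 for polysome minus total RNA.

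Counts of called genes among the 9 moved as follows, and the cause was not tested. With mifepristone on polysomes the count was 1. It became 2 with batch as a random block, without background correction, without a batch term or with an offset of 50. When 1 culture was left out it was 0 to 2. With only genes detected on every array kept it was 3, and in that setting 5 of the 9 and 4807 of all genes were tested. In total RNA the count of 1 became 0 with the authors' log2 values and was 0 to 2 with 1 culture left out. For mifepristone with 10 µM against none the count of 3 was 1 to 3 in both RNAs with 1 culture left out. It became 2 on polysomes without a batch term, and 2 in total RNA with a random or replicate block, the authors' log2 values, no background correction, no batch term, an offset of 50 or within batch 3. Without a batch term the slope of Ier2, a gene near background, was called on polysomes (0.22), and the count there went from 0 to 1. Between the lines it went from 0 to 1 in total RNA with genes detected on every array or no batch term (0 to 1 with 1 culture left out), and from 0 to 1 in polysome minus total RNA with the authors' log2 values. For 4Ei-4 against the non-inducible line within batch 4 alone the count went from 2 to 6 on polysomes and from 3 to 5 in total RNA. The calls gained went both ways. On polysomes Fos was lower, at -0.67, and Fosb (near background), Jun and Junb were higher, at 0.41, 0.46 and 0.93. In total RNA Fos was lower, at -0.94, and Junb higher, at 0.66. In polysome minus total RNA the count went from 0 to 2 within batch 4 alone. It was also 2 with genes detected on every array, without background correction or with an offset of 50. It went to 1 with the authors' log2 values, separate normalization or no filter. Calls over all genes in this comparison moved too. Over the alternative settings they ranged from 2616 to 5989 on polysomes, 2001 to 5442 in total RNA and 609 to 4319 in polysome minus total RNA. Polysome against total RNA went from 5 to 3 with genes detected on every array, where fewer of the 9 were tested. In that setting 4089 of all 4807 genes tested were called.

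Same-numbered cultures deviated together with r from -0.40 to 0.64 on polysomes and -0.29 to 0.60 in total RNA, above 0.1 in 31 of 84 pairs in each. All 3 pairs were above 0.1 for 3 of 28 pairs of groups in each RNA, among them 200 µM against no drug on polysomes and, in total RNA, 200 against 50 µM and mifepristone against none, and not for the others. With replicate number as a block, the calls over all genes for mifepristone against none in total RNA went from 79 to 73, and Klf4 for mifepristone with 10 µM against none was at 0.94 in total RNA (limma, adjusted p = 0.108), and no other call of the 9 genes was lost.

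Over all genes, calls ranged from 20 to 76 on polysomes and 27 to 104 in total RNA with mifepristone, from 182 to 1413 and 453 to 2062 between the lines, from 35 to 160 and 72 to 191 for mifepristone with 10 µM against none, and from 0 to 1474 for the slope on polysomes. The median over all genes lay between -0.05 and 0.14 in these settings. Signal near background limits Fosb, Atf3 and Ier2.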
